A study of Rattus norvegicus with 6 samples.

Results

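The mitochondrial ribosomal proteins are the nuclear-encoded proteins of the ribosome that works inside mitochondria. They were taken here as every gene whose symbol begins with Mrpl (large subunit) or Mrps (small subunit) followed by a digit, which gave 76 of 22573 genes: 46 Mrpl and 30 Mrps. RNA sequencing was done on cells from Sprague Dawley rats labelled as nucleus pulposus, the soft core of the intervertebral disc. A control group of 3 libraries was compared with 3 libraries of cells under cyclic tensile strain, in which a Flexcell device stretched the cells by 18% at 0.2 Hz for 24 h. All samples carry the same stretching text, and only a class label of control marks the 3 libraries read here as unstretched. No label gave an age, a sex, a passage, a donor or a batch, and none told whether replicates were different animals, different cultures or repeats of 1 culture. The p-values therefore describe the scatter of these 6 libraries, part or all of which may be technical.

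Mitochondria keep a small genome of their own, which encodes core subunits of the respiratory chain and the RNA parts of their ribosome. All proteins of that ribosome are encoded in the nucleus, made in the cytosol and imported, where they assemble with mitochondrial rRNA into a large subunit, which joins amino acids, and a small subunit, which reads the mRNA. Many have a counterpart in bacterial ribosomes, while others were added during the evolution of mitochondria. In the nucleus pulposus, a poorly oxygenated tissue with no blood vessels of its own, cells are known to rely largely on glycolysis.

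The values of each library summed to between 309497 and 348238 FPKM (sequenced fragments corrected for transcript length and library size). Such sums do not measure the depth of sequencing, which is unknown. Strain replicate 3 stood somewhat apart, with a correlation of log2 values across genes of 0.9825 and 0.9852 with the other strain libraries, which correlated at 0.992 with each other. The main counts below are therefore also given without it. Of 20 nucleus pulposus and notochord markers in the files, 13 averaged at least 1 FPKM, among them Mgp at 8753, Bsg at 357, Basp1 at 177, Slc2a1 at 149.8 and Lgals3 at 88.6 FPKM. The notochord genes Shh and Noto were listed at 0 in all 6 libraries, and Krt18, Krt19 and T averaged at most 0.1003 FPKM in either group. Marker lists of several cell types moved with the groups. Of the tested nucleus pulposus markers 8 of 13 were called higher (61.5%) and 2 lower (15.4%), beside 16.4% and 19.0% of all tested genes. The 20 markers summed to 5729 to 6180 FPKM in controls and 12449 to 14866 FPKM under strain, most of it Mgp (means 5102 and 12404 FPKM). Of 9 cartilage matrix genes in the files 4 were tested and 3 called higher (75.0%). Those not tested averaged at most 0.47 FPKM, the level of Col2a1. Of fibroblast genes 8 of 9 were called higher (88.9%). The remaining one, Col1a2, was lower under strain but not called (means 88.9 and 70.5 FPKM, adjusted p = 0.0676). The 10 fibroblast genes in the files summed to 5076 to 5997 FPKM in controls against 11079 to 12398 FPKM under strain, most of it Col1a1 (1849 and 5085 FPKM) and Fn1 (2796 and 5180 FPKM). The 11 macrophage genes in the files summed to 17.6 to 24.5 FPKM in controls and 20.4 to 23.7 FPKM under strain. Most of that was Cd14, at 14.5 and 15.8 FPKM, while of 4 tested genes Lyz2 was called higher (0.249 to 3.3 FPKM), Cd68 and Adgre1 lower, Cd163 was listed at 0 and Ptprc averaged at most 0.0228 FPKM. The part of these markers in the results below was not tested, and in such bulk samples a change in the share of a cell type and a change in RNA per cell cannot be told apart.

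The upstream sequences of 60 of the 76 members were found in the RefSeq promoter table of the rat build GRCr8. The following 150 bases before the annotated start are shown for 4 members on which the results turn: Mrps16 and Mrps18c, which rose, Mrps6, which fell, and Mrpl32, which was called lower without strain replicate 3. They are written 5′ to 3′ on the strand of the gene, and capitals mark matches to short motifs described further on (an ETS motif, an E-box, an NRF1 motif and an SP1 motif). Mrps18c lies at chr14:9122907-9123056 on the minus strand, Mrps16 at chr15:3967659-3967808 on the plus strand, Mrpl32 at chr17:55260501-55260650 on the plus strand and Mrps6 at chr11:44778517-44778666 on the plus strand.
Mrps18c: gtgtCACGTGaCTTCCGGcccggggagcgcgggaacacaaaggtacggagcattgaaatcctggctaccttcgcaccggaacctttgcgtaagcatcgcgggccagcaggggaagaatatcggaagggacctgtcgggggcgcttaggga
Mrps16: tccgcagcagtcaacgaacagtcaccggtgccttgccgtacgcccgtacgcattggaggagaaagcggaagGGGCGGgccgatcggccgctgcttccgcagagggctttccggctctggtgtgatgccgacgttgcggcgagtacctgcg
Mrpl32: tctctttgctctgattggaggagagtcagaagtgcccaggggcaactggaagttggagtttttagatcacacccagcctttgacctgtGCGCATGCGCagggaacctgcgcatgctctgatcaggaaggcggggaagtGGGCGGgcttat
Mrps6: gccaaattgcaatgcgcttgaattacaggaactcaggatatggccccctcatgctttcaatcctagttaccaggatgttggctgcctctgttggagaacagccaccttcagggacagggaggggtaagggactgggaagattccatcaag
An E-box stands 1 base before the ETS match of Mrps18c, a palindromic NRF1 match and an SP1 match stand in Mrpl32, an SP1 match stands in Mrps16, and none of the motifs searched stands in these 150 bases of Mrps6.

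Under strain, 14 members rose and 1 fell among the 71 that reached a mean of 1 FPKM over the 6 libraries and were tested. These are 19.7% and 1.41% of the tested members, against 16.4% of all 10180 tested genes that rose and 19.0% that fell. A gene was called where its limma adjusted p, corrected over all tested genes, was under 0.05. In the large subunit 9 of 43 genes rose and 0 fell, and in the small subunit 5 of 28 rose and 1, Mrps6, fell. At an unadjusted limma p under 0.05, 1 Mrpl gene (Mrpl32) was lower. The median log2 difference, strain minus control on the log2(FPKM + 1) scale, was 0.145 for Mrpl and 0.0853 for Mrps genes, against -0.0123 for all tested genes. The rises were small, with ratios of the group means of 1.23 to 1.47, and no member rose by 1.5 times or more. The members that did not pass the test numbered 56.

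Leaving out strain replicate 3 kept 10 of the 15 calls. The large subunit then had 7 genes that rose and 1 that fell, and the small subunit 2 that rose and 1 that fell, against 14.8% of all 10170 genes tested in that fit that rose and 20.3% that fell. The medians became 0.06 for Mrpl and -0.03 for Mrps genes, against -0.0338 for all tested genes. Control libraries mattered as well: without control replicate 1 or without control replicate 3, 3 Mrpl and 2 Mrps genes rose. That is 7.04% of the tested members in either fit, against 10.41% and 12.04% of all genes tested in those fits, so the members' share of rises was then below that of all genes, and it was also below without strain replicate 3 (12.7% against 14.8%). Without strain replicate 2, 9 Mrpl and 3 Mrps genes rose, which is 16.9% of the tested members against 13.25% of all genes tested in that fit. The shares were 15.5% against 14.6% without strain replicate 1, and 14.1% against 14.31% without control replicate 2. Mrps16, Mrpl18, Mrpl55 and Mrps6 were the 4 members called in each of the 13 alternative analyses.

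**Figure D1:**
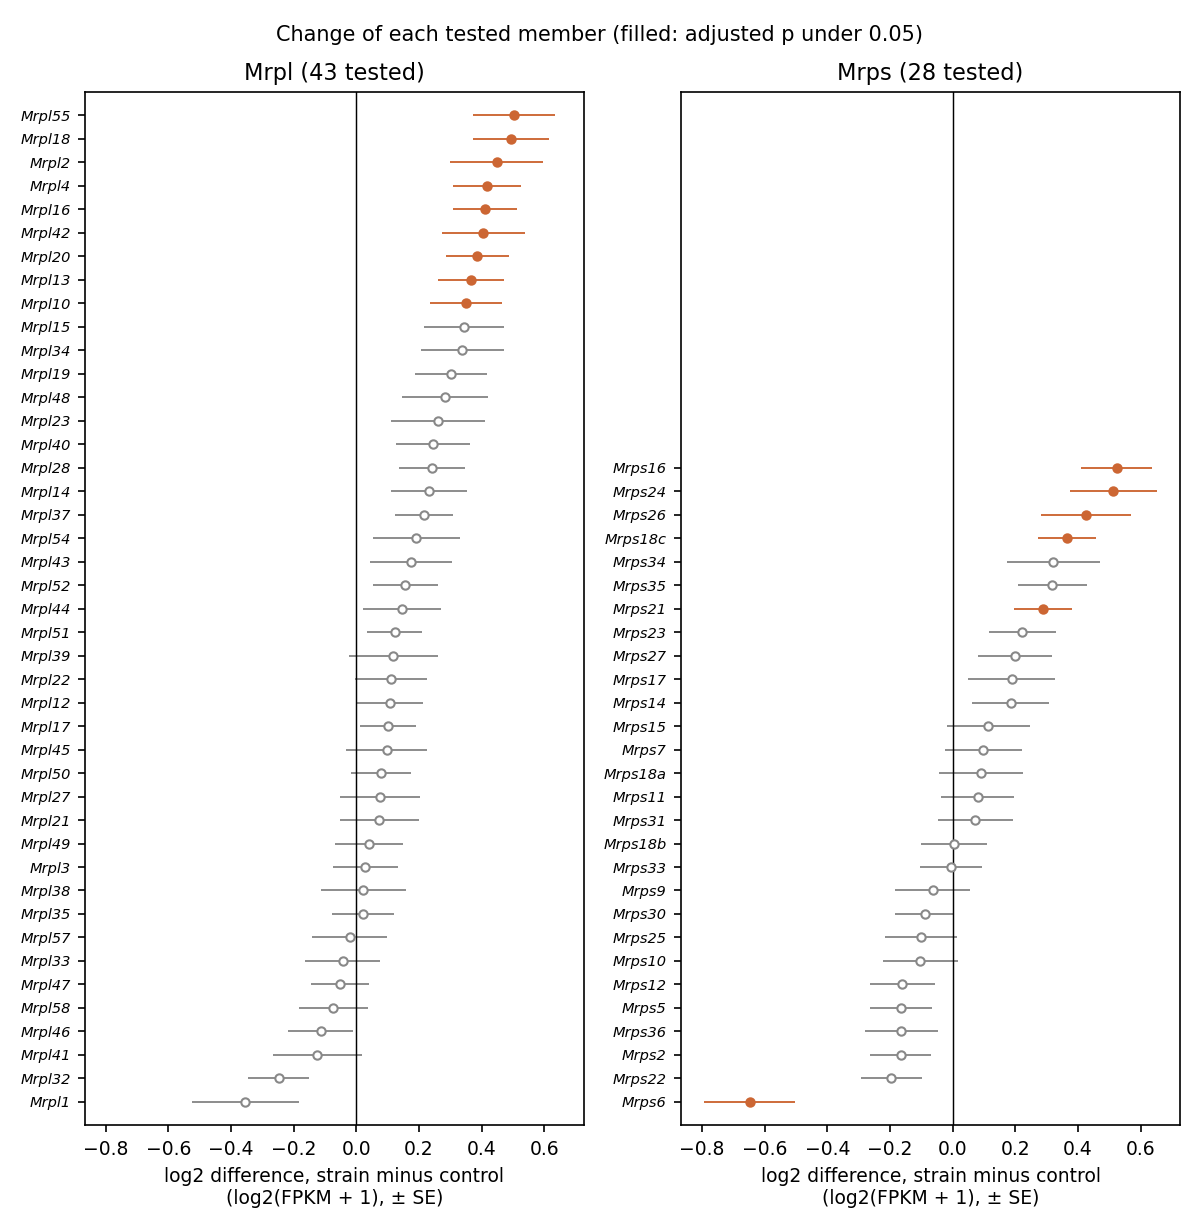
Log2 difference (strain minus control, log2(FPKM + 1)) of the 43 tested Mrpl and 28 tested Mrps genes, sorted within each panel, with bars of 1 standard error and filled points for genes with an adjusted p under 0.05. The filled points at the right are the 9 Mrpl and 5 Mrps genes that rose, and the filled point at the far left is Mrps6.

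By counting libraries instead of fitting a model, 23 members (16 Mrpl and 7 Mrps) had all 3 strain values above all 3 control values, and 3 (Mrpl32, Mrps6 and Mrps22) had all strain values below. That is 32.4% and 4.23% of the tested members, beside 24.0% and 28.0% of all tested genes. Of the 71 tested members, 52 had a log2 difference above 0 (73.2%), beside 48.4% of all tested genes. Without strain replicate 3, 41 of the 71 did.

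The members differed widely in level, from a mean of 1.22 FPKM for Mrpl1 to 92.95 FPKM for Mrpl33, with a median of 13.2 FPKM. In all, 59 of the 71 tested members lay between 5 and 30 FPKM, 6 lay above and 6 below. FPKM is a per-length scale, so levels of different genes can be set beside each other. All 6 members above 30 FPKM belonged to the large subunit.

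Mrpl33, a small protein of the large subunit with a bacterial counterpart, had 94.3, 88.3 and 99.6 FPKM in controls and 87.7, 80.1 and 107.8 FPKM under strain. Mrpl17, also with a bacterial counterpart, had 59.0, 58.7 and 59.6 FPKM in controls and 59.4, 61.5 and 69.9 FPKM under strain. Mrpl54, which has no bacterial counterpart, had 48.5, 46.2 and 39.8 FPKM in controls and 48.6, 43.9 and 62.9 FPKM under strain. In this order the values of each gene did not overlap those of its neighbour except between Mrpl17 and Mrpl54, where the highest Mrpl54 value, in strain replicate 3, exceeded 5 of the 6 Mrpl17 values. None of these 3 genes was called, with log2 differences of -0.04 (SE 0.119, adjusted p = 0.806), 0.10 (SE 0.0896, adjusted p = 0.415) and 0.19 (SE 0.139, adjusted p = 0.314).

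The most abundant small subunit genes were Mrps18b at a mean of 28.9 FPKM, Mrps7 at 28.1 FPKM and Mrps16 at 26.7 FPKM, whose values overlapped. Mrps7, whose bacterial counterpart organises the head of the small subunit, had 26.7, 27.2 and 26.9 FPKM in controls and 26.1, 26.1 and 35.5 FPKM under strain, so that only strain replicate 3 lay above the controls (log2 difference 0.10, SE 0.122, adjusted p = 0.562). The lowest tested genes of the small subunit were Mrps27, Mrps31 and Mrps18c, at means of 2.61, 5.08 and 5.75 FPKM. Those of the large subunit were Mrpl1, Mrpl40 and Mrpl14, at 1.22, 2.7 and 3.63 FPKM. Of these 6, Mrps18c was called.

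The remaining 5 members were below the filter. Mrpl36 and Mrps21l were listed at 0 in all 6 libraries, and Mrpl30 and Mrpl53 averaged 0.102 and 0.454 FPKM in controls and 0.0591 and 0.188 FPKM under strain. Mrps28 varied more between replicates than between groups, with 0.388, 0.197 and 1.52 FPKM in controls and 1.37, 0.192 and 0.0956 FPKM under strain. Genes of the same family whose symbols are written in lower case in the files are outside the rule: mrpl9, mrpl11 and mrpl24 averaged 19.0, 13.1 and 7.47 FPKM in controls and 18.6, 16.3 and 7.85 FPKM under strain, and none was called (adjusted p = 0.869, 0.139 and 0.72).

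Among the large subunit genes, the smallest p-value belonged to Mrpl18, the counterpart of the bacterial protein that binds 5S rRNA. It had 10.9, 9.78 and 10.3 FPKM in controls and 14.6, 12.8 and 17.9 FPKM under strain. Every strain library lay above every control, and the means differed 1.46 times (log2 difference 0.49, SE 0.122, adjusted p = 0.0135). Without strain replicate 3 the ratio was 1.32 (adjusted p = 0.018).

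Mrpl16, whose bacterial counterpart lies near the site where tRNA is bound, had 9.39, 9.96 and 9.41 FPKM in controls and 11.4, 13.8 and 14.1 FPKM under strain. The groups did not overlap, and the ratio was 1.37 (log2 difference 0.41, SE 0.102, adjusted p = 0.0135). Its gene model overlaps that of Stx3, a membrane-fusion gene, which moved the other way, from 3.03 ± 0.114 FPKM (SD, n = 3) in controls to 1.94 ± 0.193 FPKM (SD, n = 3) under strain. Whether the authors' counting used strand is not given in the sources used here, so reads of overlapping models may not have been separated.

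Mrpl4, whose bacterial counterpart reaches into the peptide exit tunnel, had 13.9, 15.4 and 12.3 FPKM in controls and 17.6, 18.1 and 20.8 FPKM under strain, a ratio of 1.36 (log2 difference 0.42, SE 0.108, adjusted p = 0.0164). Mrpl55, which has no bacterial counterpart, had 6.7, 7.49 and 5.1 FPKM in controls and 9.44, 8.76 and 10.1 FPKM under strain, a ratio of 1.47 (log2 difference 0.5, SE 0.132, adjusted p = 0.0171). The groups did not overlap for either gene. The model of Mrpl55 overlaps that of Guk1, a guanylate kinase gene on the opposite strand, which also rose, from 12.4 ± 2.12 to 17.2 ± 2.33 FPKM (SD, n = 3 each).

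Mrpl20, an early assembly protein in bacteria, was the most abundant of the members that rose, with 31.4, 32.9 and 31.3 FPKM in controls and 40.1, 38.2 and 48.1 FPKM under strain (ratio 1.32, log2 difference 0.39, SE 0.101, adjusted p = 0.0174). Mrpl13 had 19.7, 18.7 and 20.02 FPKM in controls and 24.9, 22.4 and 29.2 FPKM under strain (ratio 1.31, log2 difference 0.37, SE 0.106, adjusted p = 0.0261). Both kept their call without strain replicate 3 (adjusted p = 0.0151 and 0.0338), and in both the strain libraries lay above all controls.

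Mrpl42, Mrpl10 and Mrpl2 were the other large subunit genes that rose. Mrpl10, which in bacteria holds the stalk that recruits translation factors, had 17.0, 15.4 and 13.1 FPKM in controls and 19.5, 17.8 and 21.4 FPKM under strain (ratio 1.29, adjusted p = 0.0413). Mrpl2, whose bacterial counterpart is needed at the peptidyl transferase centre, had 10.8, 9.58 and 8.37 FPKM in controls and 12.5, 11.4 and 16.9 FPKM under strain (ratio 1.42, adjusted p = 0.0433). Mrpl42 had 16.6, 16.4 and 15.9 FPKM in controls and 20.6, 18.7 and 27.4 FPKM under strain (ratio 1.36, adjusted p = 0.0406). The groups did not overlap for any of these, but the call of Mrpl10 and of Mrpl2 ended without strain replicate 3 (adjusted p = 0.0923 and 0.0837). The models of Mrpl10 and Lrrc46 overlap, and Lrrc46 averaged 0.307 FPKM.

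Well-known large subunit genes that did not pass the test included Mrpl12, Mrpl3, Mrpl41, Mrpl44 and Mrpl45. Mrpl12, the stalk protein that also binds the mitochondrial RNA polymerase, had 12.9, 14.7 and 14.0 FPKM in controls and 15.2, 13.1 and 16.8 FPKM under strain (log2 difference 0.11, SE 0.108, adjusted p = 0.476). Mrpl45, which lies at the membrane side of the exit tunnel, had 13.8, 13.5 and 10.8 FPKM in controls and 13.0, 12.01 and 15.98 FPKM under strain (log2 difference 0.1, SE 0.13, adjusted p = 0.597). The groups of both genes overlapped. Mrpl3 and Mrpl44, in which mutations cause cardiomyopathy, had log2 differences of 0.03 (SE 0.104) and 0.14 (SE 0.124), and Mrpl41 had -0.12 (SE 0.141), with adjusted p of 0.857, 0.395 and 0.526.

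Mrpl32 was the large subunit gene that gained a call without strain replicate 3. It had 22.5, 22.2 and 21.9 FPKM in controls and 18.5, 16.7 and 20.8 FPKM under strain. All strain values lay below the controls, yet the test was not passed with all libraries (log2 difference -0.25, SE 0.0963, adjusted p = 0.0743). Without strain replicate 3 it was called lower (log2 difference -0.32, adjusted p = 0.0146). MRPL32 protein is cleaved on import by the m-AAA protease, a step known to be needed for assembly, and Afg3l2, which encodes a subunit of that protease, fell from 16.7 ± 1.19 to 13.1 ± 1.23 FPKM (SD, n = 3 each, adjusted p = 0.0279).

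**Figure D2:**
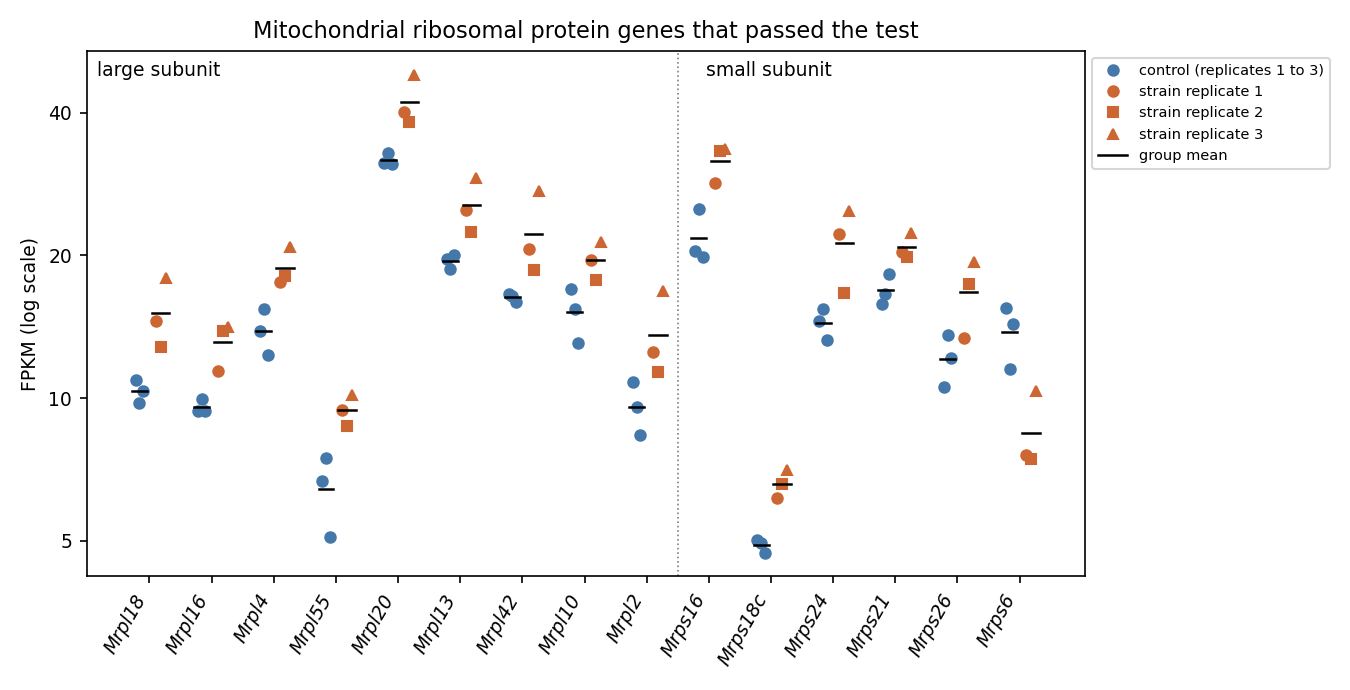
FPKM (log scale) of the 15 called members in each of the 6 libraries, with black bars at the group means. Strain replicate 3 (triangle) is the highest library for the 14 members that rose, and Mrps6 is the member whose 3 strain values lie below its 3 control values.

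In the small subunit, Mrps16 had the smallest p-value of all members. It has a bacterial counterpart that supports assembly of the subunit, and its loss in humans causes a fatal deficit of mitochondrial translation. It had 20.5, 25.1 and 19.8 FPKM in controls and 28.4, 33.2 and 33.5 FPKM under strain. The groups did not overlap, and the means differed 1.45 times (log2 difference 0.52, SE 0.113, adjusted p = 0.00737). Strain replicates 2 and 3 were close together here, and without strain replicate 3 the ratio was 1.41 (adjusted p = 0.0207).

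Mrps18c was the member of its family of 3 genes that changed. This gene, one of the 3 mammalian versions of bacterial protein S18, had 5.03, 4.94 and 4.73 FPKM in controls and 6.17, 6.59 and 7.06 FPKM under strain (ratio 1.35, log2 difference 0.37, SE 0.0927, adjusted p = 0.0149). Mrps18b had 31.7, 27.3 and 27.5 FPKM in controls and 29.0, 25.9 and 31.9 FPKM under strain (log2 difference 0.0048, SE 0.104, adjusted p = 0.977). Mrps18a, whose protein is known to sit in the large subunit despite its name, had 19.6, 19.7 and 14.5 FPKM in controls and 17.6, 18.0 and 21.7 FPKM under strain (log2 difference 0.09, SE 0.135, adjusted p = 0.634). The groups overlapped for Mrps18a and Mrps18b and did not for Mrps18c, and the differences between the 3 genes were not tested.

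Mrps24, Mrps21 and Mrps26 also rose, and each lost its call without strain replicate 3 (adjusted p = 0.0503, 0.0596 and 0.119). Mrps24 had 14.6, 15.4 and 13.3 FPKM in controls and 22.2, 16.7 and 24.8 FPKM under strain (ratio 1.47, log2 difference 0.51, SE 0.14, adjusted p = 0.0203). Mrps21 had 15.8, 16.6 and 18.3 FPKM in controls and 20.3, 19.8 and 22.3 FPKM under strain (ratio 1.23, adjusted p = 0.0384), and its near copy Mrps21l was listed at 0. RefSeq also names near copies of Mrpl41, Mrpl42 and Mrps36, whose fragments could be split between copies. Mrps26, which has no bacterial counterpart, had 10.6, 13.6 and 12.2 FPKM in controls and 13.4, 17.4 and 19.4 FPKM under strain (ratio 1.38, adjusted p = 0.0457). Mrps26 was the called member whose groups overlapped, since strain replicate 1 lay below control replicate 2. Just outside the threshold was Mrps35, with 5.11, 5.17 and 5.08 FPKM in controls and 5.91, 6.31 and 7.79 FPKM under strain (adjusted p = 0.0513).

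Mrps6 was the member that fell. It encodes the counterpart of bacterial protein S6, which pairs with S18 on the platform of the small subunit. It had 15.5, 11.5 and 14.3 FPKM in controls and 7.58, 7.46 and 10.3 FPKM under strain. The highest strain value, in replicate 3, was below the lowest control value, and the control mean was 1.63 times the strain mean (log2 difference -0.65, SE 0.146, adjusted p = 0.00885). Without strain replicate 3 the log2 difference was -0.79 (adjusted p = 0.00401). The Mrps6 model contains Slc5a3, a myo-inositol transporter gene on the same strand that responds to osmotic stress. Slc5a3 had 1.53, 1.25 and 2.29 FPKM in controls and 0.373, 0.895 and 0.136 FPKM under strain, and it was also called lower (log2 difference -0.89, SE 0.203, adjusted p = 0.00968). Fragments may not have been separated where the models overlap, and how far the Mrps6 value rests on Slc5a3 fragments was not tested.

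Other landmark genes of the small subunit did not pass the test. Mrps22, a mitochondria-specific protein linked to mitochondrial disease, had 13.1, 11.1 and 11.1 FPKM in controls and 10.2, 10.4 and 9.68 FPKM under strain, with no overlap (log2 difference -0.2, SE 0.0966, adjusted p = 0.146). Mrps12, the counterpart of the bacterial protein in which streptomycin resistance arises, had 17.8, 19.9 and 18.4 FPKM in controls and 16.7, 14.8 and 18.6 FPKM under strain (log2 difference -0.16, SE 0.103, adjusted p = 0.253). Mrps2 had a log2 difference of -0.17 (SE 0.0977, adjusted p = 0.217). Mrps30, whose protein also belongs to the large subunit, had -0.09 (SE 0.0946, adjusted p = 0.495). Mrps36, whose protein was later found to be part of the 2-oxoglutarate dehydrogenase complex and which RefSeq names Kgd4, had -0.16 (SE 0.117, adjusted p = 0.303).

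The total put into this gene family changed little in FPKM but rose as a share. Summed over all 76 members, the level was 1126, 1115 and 1074.6 FPKM in controls and 1144, 1121 and 1398 FPKM under strain, so the groups overlapped and only strain replicate 3 stood out. As a share of all FPKM in the library the same sum was 0.325%, 0.336% and 0.322% in controls and 0.361%, 0.363% and 0.402% under strain, with no overlap. The share of Mrpl genes went from 0.22% ± 0.00402 (SD, n = 3) to 0.255% ± 0.0169 (SD, n = 3), and that of Mrps genes from 0.108% ± 0.00353 to 0.121% ± 0.00659. With 3 against 3 libraries an exact permutation test of such a sum cannot go below 0.1, so none is given. Strain replicates 1 and 2 had the smallest library totals, 318049 and 309497 FPKM, against 332716 to 348238 FPKM in the other libraries, so the same sum was a larger share there.

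Strain replicate 3 was the highest of the 6 libraries for 53 of the 71 tested members (74.6%; 34 Mrpl and 19 Mrps), beside 33.8% of all tested genes. It exceeded both other strain libraries for 65 members. The median log2 difference between strain replicate 3 and the mean of strain replicates 1 and 2 was 0.262 over the members and 0.064 over all tested genes. The same held for other families that make proteins for ribosomes and respiration: strain replicate 3 was the highest library for 90.2% of 82 cytosolic ribosomal protein genes and 84.4% of 77 nuclear-encoded respiratory chain genes, with median excesses of 0.333 and 0.298. As 1 library it has no replicate, so these are descriptions.

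Set against the control mean, the median member lay at 0.0351 in strain replicate 1, 0.0436 in strain replicate 2 and 0.316 in strain replicate 3 on the log2 scale. The corresponding medians of all tested genes were -0.0314, -0.0361 and 0.0295. For Mrps genes alone the medians in strain replicates 1 and 2 were -0.0033 and -0.0162, close to the controls, while for Mrpl genes they were 0.0965 and 0.0901. The median coefficient of variation between replicates was 7.26% among controls and 12.9% under strain.

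**Figure D3:**
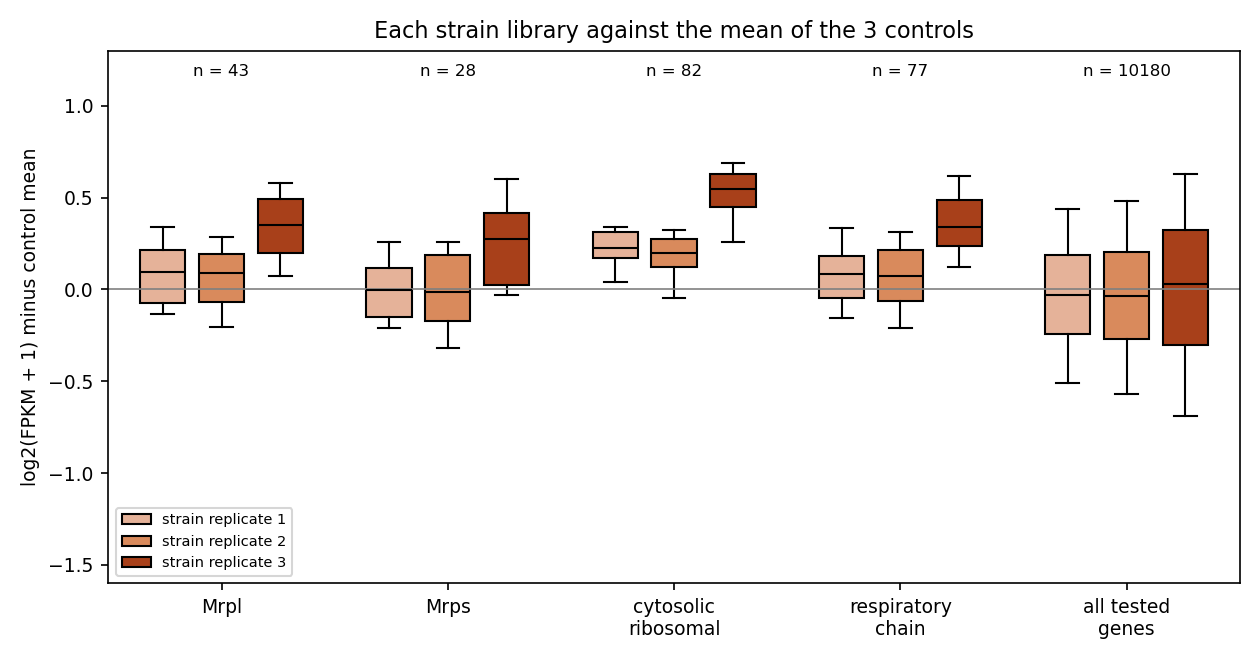
Log2(FPKM + 1) in each strain library minus the mean of the 3 controls, for 43 Mrpl genes, 28 Mrps genes, 82 cytosolic ribosomal protein genes, 77 respiratory chain genes and all 10180 tested genes. Boxes span the quartiles with the median as a line, and whiskers reach the 10th and 90th percentiles of the genes. In each of the 4 families the box of strain replicate 3 sits above those of strain replicates 1 and 2.

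The excess of strain replicate 3 was uneven among the tested members. It was widest for Mrps34, a mitochondria-specific protein of the small subunit, with 15.99 and 18.6 FPKM in strain replicates 1 and 2 and 25.4 FPKM in replicate 3 (log2 excess 0.53), beside 15.6, 14.97 and 15.99 FPKM in controls. Next came Mrpl2 (0.47) and Mrpl23 (0.46), of which Mrpl23 had 33.9, 35.7 and 48.3 FPKM under strain beside 36.7, 33.0 and 27.7 FPKM in controls. At the other end of the tested members Mrpl1, Mrps22 and Mrpl47 were lower in strain replicate 3 than in the mean of the other strain libraries, by log2 excesses of -0.09, -0.08 and -0.08. Neither Mrps34 (adjusted p = 0.122) nor Mrpl23 (adjusted p = 0.206) was called.

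**Figure D4:**
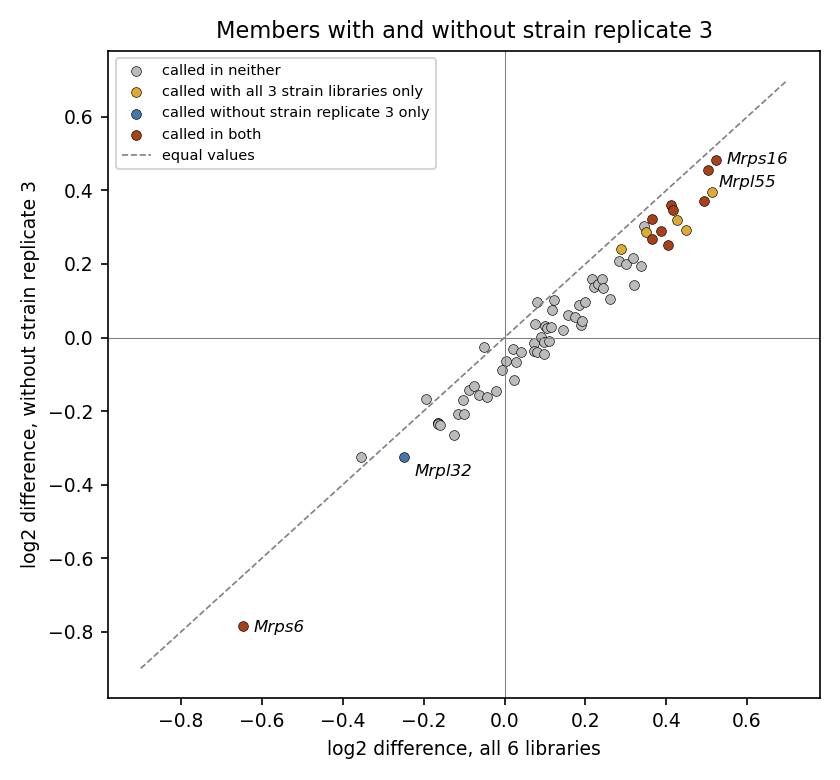
Log2 difference of the 71 tested members with all 6 libraries (horizontal) and without strain replicate 3 (vertical), coloured by whether the adjusted p was under 0.05 in both fits (10 members), with all libraries only (5) or without strain replicate 3 only (1, Mrpl32). Most points lie below the dashed line of equal values, and Mrps6 lies at the far lower left in both.

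Members with and without a bacterial counterpart were split from textbook knowledge. Of 39 tested members with a counterpart, 11 rose and 1 fell, and of 31 without one, 3 (Mrpl42, Mrpl55 and Mrps26) rose and 0 fell, with 0 falls also at an unadjusted limma p under 0.05. The rises are 28.2% and 9.68%, beside 16.4% of all tested genes. Without strain replicate 3 they were 7 and 2 (17.9% and 6.45%), beside 14.8% of all genes tested in that fit. In the same fit 2 members with a counterpart and 0 without one fell, beside 20.3% of all genes. The median log2 differences of the classes were 0.114 and 0.118, and 0.0353 and 0.0454 without strain replicate 3, and the difference between the classes was not tested. Mrps36 was placed in neither class. Mrps18a and Mrps18b, though versions of bacterial S18, were placed with the members lacking a counterpart, and Mrps18c with those having one.

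Cytosolic ribosomal protein genes, the other ribosomal family encoded in the nucleus, gave a larger median. Of 82 tested, 32 rose and 3 fell, with a median log2 difference of 0.332 (39.0% and 3.66%, beside 16.4% and 19.0% of all tested genes). Without strain replicate 3, 35 rose and 3 fell, with a median of 0.223. Nuclear-encoded respiratory chain genes, whose products join those made by the mitochondrial ribosome, had 13 of 77 higher (16.9%, near the 16.4% of all tested genes), 1 lower and a median of 0.165, which was 0.0957 without strain replicate 3. Differences between these families and the mitochondrial ribosomal proteins were not tested.

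The other genes of mitochondrial translation went both ways. Of 67 tested genes for mitoribosome proteins with other symbols, translation factors, assembly and rRNA-modifying proteins and mitochondrial tRNA synthetases, 7 rose and 5 fell, with a median log2 difference of 0.137. These are 10.4% and 7.46%, both below the shares of all tested genes (16.4% and 19.0%). Without strain replicate 3 the counts were 2 (2.99%) and 4, beside 14.8% of all genes tested in that fit that rose and 20.3% that fell. The total of 12 calls also fell to 4 without control replicate 1 and to 5 without control replicate 3. Calls over all tested genes fell as well, from 3608 to 2363 and 2802 in those fits.

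Of the 5 tested mitoribosome proteins with other symbols, Chchd1 rose, from 22.2 ± 3.09 to 29.95 ± 2.91 FPKM (SD, n = 3 each, adjusted p = 0.0242), while Aurkaip1 and Dap3 had log2 differences of 0.44 (adjusted p = 0.0546) and 0.29 (adjusted p = 0.0863). Chchd1 lost its call without strain replicate 3 (adjusted p = 0.0582). Of 16 translation factors, 2 rose (12.5%, below the 16.4% of all tested genes) and 0 fell. Pdf, the deformylase that trims the first residue of new mitochondrial proteins, had 2.2, 3.45 and 3.52 FPKM in controls and 5.28, 5.48 and 6.78 FPKM under strain, a ratio of 1.91 (log2 difference 0.76, SE 0.154, adjusted p = 0.00523). Mtfmt, which puts the formyl group on the initiator tRNA that Pdf later removes, went from 5.58 ± 0.469 to 7.63 ± 1.33 FPKM (SD, n = 3 each, adjusted p = 0.0471). When strain replicate 3 was left out, Pdf kept its call (adjusted p = 0.0197) and Mtfmt did not (adjusted p = 0.114). Mtrf1, a release factor, had a log2 difference of 0.33 (adjusted p = 0.0668).

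Among 30 tested assembly and rRNA-modification genes, 1 rose and 5 fell (16.7%, near the 19.0% of all tested genes that fell). Fastkd2, an RNA-binding protein needed for the 16S rRNA and the large subunit, had 3.62, 4.23 and 3.46 FPKM in controls and 2.38, 1.91 and 2.38 FPKM under strain, a control mean 1.69 times the strain mean (log2 difference -0.56, SE 0.112, adjusted p = 0.00486). Fastkd5, a related RNA-processing protein, fell from 3.54 ± 0.507 to 2.32 ± 0.169 FPKM (SD, n = 3 each, adjusted p = 0.0142). Afg3l2 (above), the GTPase gene Noa1 (adjusted p = 0.0391) and the rRNA methyltransferase gene Mrm3 (adjusted p = 0.0485) were the other falls, and Malsu1, a factor of large subunit assembly, was the rise (10.03 ± 2.53 to 14.4 ± 1.04 FPKM, SD, n = 3 each, adjusted p = 0.0285). Of these 6 the names Noa1, Mrm3 and Malsu1 were chosen after their values were seen. Malsu1 and Mrm3 lost their calls without strain replicate 3 (adjusted p = 0.0811 and 0.0664), while Fastkd2, Fastkd5, Afg3l2 and Noa1 kept theirs.

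Of 16 tested mitochondrial tRNA synthetase genes, 3 rose (18.8%, near the 16.4% of all tested genes) and 0 fell, while 1 (Wars2) was lower at an unadjusted limma p under 0.05. Tars2, for threonine, and Pars2, for proline, had log2 differences of 0.44 (adjusted p = 0.0211) and 0.4 (adjusted p = 0.0384). Neither of them kept its call without strain replicate 3 (adjusted p = 0.052 and 0.0787).

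Of 17 tested genes for mitochondrial transcription and its nuclear regulators, 0 rose and 5 fell (29.4%, beside 16.4% of all tested genes that rose and 19.0% that fell), with a median of -0.165. At an unadjusted limma p under 0.05 the counts were 0 and 7. Gabpa, the DNA-binding subunit of the ETS factor NRF2/GABP that is known to act on many mitochondrial genes, had 14.3, 12.7 and 13.7 FPKM in controls and 8.7, 8.49 and 6.43 FPKM under strain, a control mean 1.72 times the strain mean (log2 difference -0.72, SE 0.119, adjusted p = 0.00202). Yy1, another such regulator, fell from 12.7 ± 0.577 to 9.78 ± 0.522 FPKM (SD, n = 3 each, adjusted p = 0.0145), and Gabpb2, a partner of Gabpa, fell from 2.36 ± 0.541 to 1.21 ± 0.371 FPKM (SD, n = 3 each, adjusted p = 0.0181). The other falls, named after their values were seen, were Tfam, the packaging and transcription factor of mitochondrial DNA (adjusted p = 0.0401), and Myc (adjusted p = 0.0425), whose groups overlapped. Tfam and Myc were each called in 6 of the 13 alternative analyses, and Myc lost its call without strain replicate 3 (adjusted p = 0.072). In that fit 0 genes of this list rose and 4 fell, with a median of -0.206, beside 14.8% of all tested genes that rose and 20.3% that fell. Nrf1 was not called (log2 difference -0.25, SE 0.101, adjusted p = 0.0847).

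Markers of mitochondrial mass and import showed 0 rises and 2 falls (11.1%, beside 19.0% of all tested genes) among 18 tested genes, with a median of -0.0789, and 0 and 3 at an unadjusted limma p under 0.05. The outer membrane channel gene Vdac3 fell from 69.85 ± 4.41 to 56.0 ± 2.02 FPKM (SD, n = 3 each, adjusted p = 0.0211) and the matrix chaperonin gene Hspd1 from 89.0 ± 2.51 to 73.1 ± 1.51 FPKM (SD, n = 3 each, adjusted p = 0.0242). Tomm40, the import pore gene, had a log2 difference of -0.29 (adjusted p = 0.0536). The summed level of these genes as a share of the library was 0.305% to 0.315% in controls and 0.305% to 0.307% under strain, whereas that of the mitochondrial ribosomal proteins did not overlap between groups. The same held for cytosolic ribosomal protein genes (8.67% to 8.91% in controls, 10.96% to 12.7% under strain). For respiratory chain genes the shares were 1.5% to 1.54% and 1.7% to 1.95%, also without overlap.

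**Figure D5:**
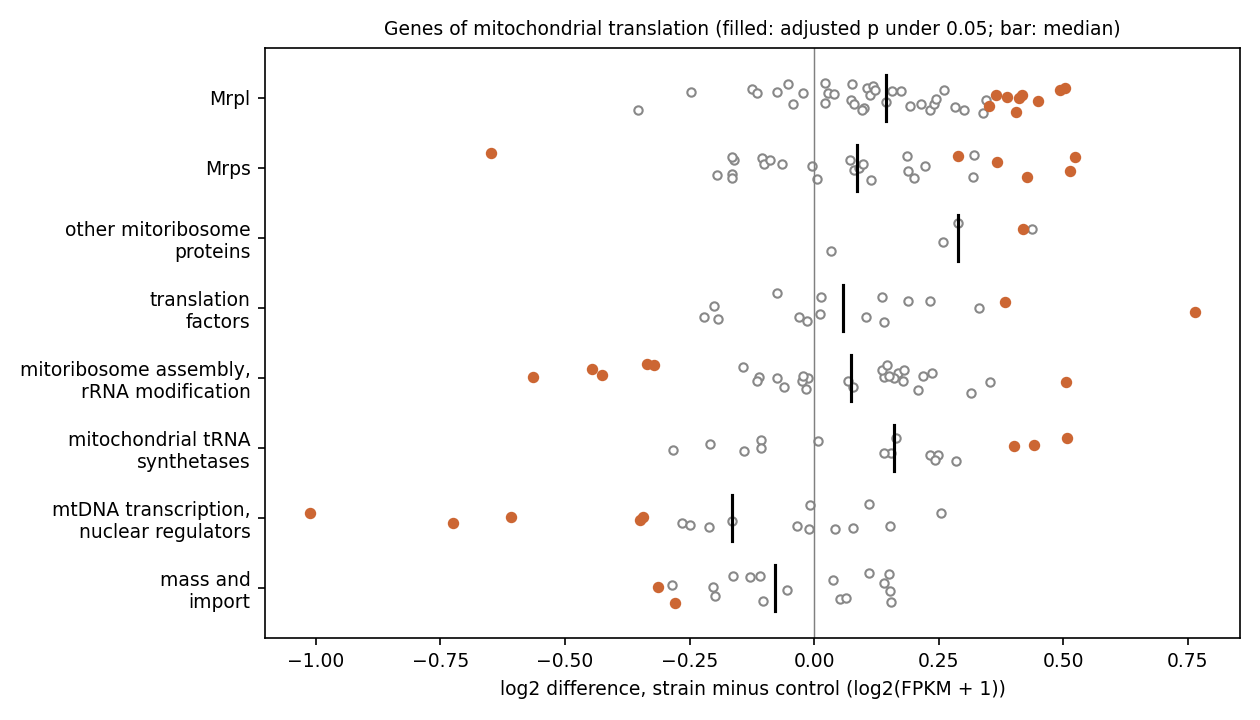
Log2 difference of every tested gene of each list (1 point a gene, filled where the adjusted p is under 0.05, vertical bar at the median, points spread vertically at random for legibility). The filled points of the Mrpl row lie to the right of 0, and those of the transcription and regulator row and the mass and import row lie to the left.

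Promoters of the members were searched on both strands, in the 300 bases from 250 before to 50 after the annotated start, for the letters of motifs known from mitochondrial promoters. The ETS motif CCGGAAG, the kind that GABP binds, stood in 21 of 60 members (35.0%), beside 19.5% of 7716 other tested genes and 8.7% of 33407 other promoters in the table. The YY1 motif AANATGGCG stood in 13 (21.7%), beside 7.45% and 2.98%. The NRF1 motif GCGCANGCG stood in 11 (18.3%), beside 14.6% and 5.77%. The E-box CACGTG, a site of the circadian clock proteins and other factors, stood in 6 of 60, beside 9.95% and 6.41%, and the SP1 motif GGGCGG in 30 of 60, beside 66.2% and 33.0%. No motif's letters contain those of another, though matches may overlap. A match is a description of these letters in this window and shows no binding.

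Of the 12 called members with a promoter in the table, 5 had the ETS motif, 7 the SP1 motif, 2 the E-box, 1 the NRF1 motif and 1 the YY1 motif. The ETS matches of those 5 are shown in 25-base stretches with the motif, on either strand, in capitals.
Mrpl20: agaggcgacCCGGAAGacagtgctt
Mrpl4: attggtttgCTTCCGGagcccgctc
Mrps18c: gtcacgtgaCTTCCGGcccggggag
Mrps21: tagcttccgCTTCCGGtacggaggg
Mrps26: cctcgaccaCTTCCGGacagggcgc
In 4 of the 5 the match lay after the annotated start, and in Mrps18c its first base lay 139 bases before it. In GRCr8 the stretches lie at chr5:171691219-171691243 on the plus strand, chr8:27815762-27815786 (plus), chr14:9123030-9123054 (minus), chr2:186103329-186103353 (minus) and chr3:138222332-138222356 (plus), in the order shown.

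Of the YY1 matches, 12 of 13 lay after the start. Their letters hold ATGGCG, which can also be the start codon followed by an alanine codon, so a match there need not be a factor's site. The 8 members with the letters AAGATGGCG on the strand of the gene are shown.
Mrpl37: cccgggcaAAGATGGCGgcgtccag
Mrpl42: attgaagcAAGATGGCGagcgcgcg
Mrpl46: aagacggaAAGATGGCGgcgcccat
Mrpl50: gcttgtcgAAGATGGCGgcgctgtg
Mrps10: agggcaccAAGATGGCGgcgcgcgc
Mrps18a: gtgttcccAAGATGGCGgccctcag
Mrps27: tacgctccAAGATGGCGgcccccat
Mrps30: ggaggacaAAGATGGCGgctgccag
In the order shown they lie at chr5:127074945-127074969 (minus strand), chr7:32028487-32028511 (minus), chr1:142116990-142117014 (minus), chr5:68668045-68668069 (minus), chr9:21122407-21122431 (minus), chr9:22367364-22367388 (minus), chr2:32474225-32474249 (plus) and chr2:52195870-52195894 (minus). Of these 8, Mrpl42 was called, and 5 had a log2 difference above 0. In the same order the log2 differences were 0.22, 0.41, -0.11, 0.08, -0.1, 0.09, 0.2 and -0.09.

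Several members share an upstream region with a neighbour transcribed the other way. Both genes were in the files for 13 such pairs of the RefSeq annotation, and in 9 of them both were tested. The signs of the log2 differences were the same in 3 pairs and opposite in 6, and in 0 pairs were both genes called. Mrpl46 and Mrps11, a large and a small subunit gene whose starts lie 234 bases apart, had 8.52, 8.74 and 8.45 FPKM and 9.21, 8.81 and 8.28 FPKM in controls. Under strain they had 7.25, 7.31 and 9.08 FPKM and 8.65, 8.35 and 11.2 FPKM, and neither was called (adjusted p = 0.425 and 0.631). The values of both were highest in strain replicate 3.

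Mrpl18, which rose, shares its upstream region with Tcp1, a cytosolic chaperonin gene, which had 66.1 ± 7.24 FPKM in controls and 54.7 ± 4.32 FPKM under strain (SD, n = 3 each; log2 difference -0.26, SE 0.107, adjusted p = 0.084). Mrps18c, which rose, stands 72 bases from the start of the helicase gene Helq (log2 difference -0.08, SE 0.111, adjusted p = 0.608). Mrpl32 and the proteasome gene Psma2, 210 bases apart, both had negative differences (-0.25 and -0.16, adjusted p = 0.0743 and 0.177). Mrpl49 and Fau, which encodes a cytosolic ribosomal protein, had 0.04 (adjusted p = 0.804) and 0.35 (adjusted p = 0.0698).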

How the data were processed

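RNA sequencing values of 6 rat nucleus pulposus samples, 3 control and 3 under cyclic tensile strain per the labels, were analysed. The deposited files hold 1 value per gene symbol, taken as FPKM from their range and from the tools in the submitters' processing notes (DESeq, Cufflinks, Cuffdiff 2.2.1, HISAT2 2.0.4 and cutadapt 1.9.3). Their order and role, the annotation and the use of strand are not given in the sources used here, and the one build named there, hg19, is human, so no coordinates were taken from the files. FPKM keeps no read totals, so the depth is unknown and counting intervals could not be given. Left out were 27 rows whose symbol had become a date and 1 unreadable row.

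Genes averaging 1 FPKM or more were tested as log2(FPKM + 1) with limma 3.58.1 in R 4.3.3 (trend and robust moderation, two-sided, Benjamini-Hochberg over all 10180 tested genes, called at an adjusted p under 0.05), in a script tested on simulated data. The log2 scale understates changes of low genes. Ratios are of group means, not given when either group averaged below 1 FPKM. Alternatives were a pseudocount of 0.1, no filter, a filter at 5 FPKM, quantile normalization, median centring, limma without trend and robust moderation, the replicate number as a block, and leaving out each library. The members and gene lists were chosen with earlier results of these data known. Named are, per subunit and direction, the 6 called members with the smallest p, the 3 highest and 3 lowest in level, a list of landmark members, the 3 largest and smallest excesses of strain replicate 3, and the 3 smallest p of each pathway list. A gene that this rule takes is not reported here. The other named genes (the remaining called members, members with a shared or overlapping neighbour, those just outside the threshold, and cell type markers) were added after their values were seen. Promoters and gene models are RefSeq's for GRCr8, of which 75 members matched a gene model by symbol and 60 a promoter. There are 16 members whose model overlaps another protein-coding gene.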

Additional observations from a re-analysis of the deposited data

How the results depend on the processing

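Among the 15 called members, 4 (Mrps16, Mrpl18, Mrpl55 and Mrps6) were called under all 13 alternatives. The count of Mrpl genes that rose was 9 and became 14 with quantile normalization. Leaving out 1 library at a time gave 3 to 9, and 0 to 1 for Mrpl genes that fell. The count of Mrps genes that rose was 5 and became 3 without a filter on low values and 8 with quantile normalization, with 2 to 5 on leaving out 1 library. Over both subunits 31.0% of the tested members rose with quantile normalization, beside 21.0% of all tested genes. Without a filter these shares were 12.2% and 10.68%. Over all tested genes 3608 were called, and 2363 to 3572 on leaving out 1 library. The 12 calls among the other genes of mitochondrial translation became 4 with a filter at 5 FPKM and 4 to 12 on leaving out 1 library. The cause of these shifts was not tested, except that the filter leaves fewer genes and leaving out a library fewer samples. The rises and falls of all tested genes, 1672 and 1936, became 2138 and 1711 with quantile normalization and 2055 and 1653 with median centring, which moved the median of all tested genes to 0.0335 and 0.0365 and that of the members to 0.172 and 0.163. Of 678 pairs of a named gene and an alternative, 83 lost a call, 10 gained one and 0 called genes changed sign. Replicate numbers showed no clear pairing of the samples. The deviations of same-numbered libraries from their group means correlated at 0.033, 0.108 and -0.116, beside -0.21 to 0.12 between libraries of different numbers. Not every library correlated best with its own number. Such correlations cannot tell whether same-numbered libraries shared an animal or a culture. With the replicate number as a block, 6 Mrpl and 4 Mrps genes rose and 1 Mrps gene fell. That is 14.1% and 1.41% of the tested members, beside 14.16% and 16.5% of all tested genes, so the members' share of rises was near that of all genes. In that fit 7 of the other genes of mitochondrial translation were called, with 3116 calls over all genes. Depth is unknown, so low genes carry no counting error here, and the cell type, donor and batch behind each library were not given.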
